A study of Mus musculus with 18 samples.

Results

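This report follows 36 mouse genes of glycolysis and of the response to low oxygen in CD4 T cells. They were chosen by a fixed list of names, with earlier results of these data known. The list holds 15 glycolytic enzymes, 4 transporters of glucose and lactate and 3 regulators of flux through glycolysis. It also holds 13 targets of hypoxia-inducible factor (HIF) outside glycolysis, and Hif1a itself. Each gene was read from the brightest Affymetrix probe set that carries its symbol alone, judged by the mean over 18 arrays. The array annotation used here named a probe set for 34 of the 36 genes, among 18194 genes in all. The enzymes Gpi1 and Eno1 had none and were not analysed here, so 13 of the 15 glycolytic enzymes have values.

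Glycolysis splits glucose into pyruvate in the cytosol and yields ATP without oxygen, and lactate dehydrogenase turns the pyruvate into lactate. HIF-1 is a transcription factor with an oxygen-labile alpha subunit. When oxygen is scarce, prolyl hydroxylases no longer mark that subunit for destruction, and HIF raises transcription of nearly every glycolytic gene and of genes for blood vessel growth, mitophagy and collagen modification. In T cells, signals from the antigen receptor and from CD28 are known to raise both glucose uptake and Hif1a, also where oxygen is plentiful.

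The arrays came from splenic CD4 T cells that were isolated with magnetic beads from C57BL/6 mice, 9 to 15 weeks old. The mice were wild type (WT), Gli2A Tg or Gli2R Tg. Gli2 is a transcription factor of the Hedgehog pathway, and the Gli2A and Gli2R transgenes encode forms that activate and repress its targets, respectively. What promoter drives the transgenes is not given here. Cells were either unstimulated, called resting below, or stimulated with antibodies to CD3 and CD28 for 6 h. This gives 6 groups of 3 arrays. Nothing in the labels says that the 3 samples of a group came from separate animals. Y-linked genes and Xist, set against each other in each array, marked 5 arrays as male: 2 from resting WT cells, 1 from WT cells after stimulation and 2 from Gli2R Tg cells after stimulation. Both Gli2A Tg groups and resting Gli2R Tg cells had none. The 3 mixed groups thus hold more than 1 animal each, while for the others this is not known. The p-values use a spread estimated over all 6 groups together. They measure only the spread between these samples, which may in part be technical. The labels do not say whether resting cells were kept in culture, so an effect of culture cannot be told apart from that of the antibodies.

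Some facts of the whole series touch the members' values. Arrays of 1 group correlated at 0.971 to 0.981 over all genes. Resting Gli2A Tg replicate 3 lay farthest from its group mean, with an SD over genes of 0.377 on the log2 scale against 0.305 to 0.371 for the other 17 arrays. It also had the highest erythroid marker sum, 47000 intensity units. The CD4 T cell markers were bright: 9 of 10 listed markers were measured, with summed levels of 68000 to 98600 in resting and 42300 to 51000 in stimulated arrays, and 6 of the 9 fell with stimulation in WT cells. Markers of other cells were present in the resting arrays. The summed level of 15 of 17 listed myeloid markers was 47600 to 120000 in resting arrays and 1940 to 6570 in stimulated ones, and 14 of the 15 fell with stimulation in each genotype. None of them was at 0, and in stimulated arrays Itgam was near the lower end of the scale, with group means of 4.65 to 4.89. The sum of 7 of 12 erythroid markers was 2910 to 47000 in resting and 988 to 3240 in stimulated arrays. The sum of 8 of 10 B cell markers was 3220 to 9060 in resting and 552 to 1810 in stimulated arrays. For 7 of 8 CD8 T and NK markers the sum was 6460 to 9990 in resting and 2880 to 4840 in stimulated arrays. These did not move as a set: in WT cells 4 fell and 2 rose with stimulation. Group means went from 7.23 to 9.27 for Cd8a and from 8.43 to 10.23 for Eomes. In such bulk samples, fewer cells of a type and less RNA per cell cannot be told apart.

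Levels below are log2 of the intensity plus 16, quantile normalized. On this scale the median gene mean was 7.06, the lower quartile 5.37, and the highest single value of any gene 15.77. A difference is between group means of 3 arrays each, with its standard error (SE). Some arrays are said not to overlap those of other groups, or to lie above or below them. The share of all genes that do so was not computed. A gene was called where limma's p, adjusted by Benjamini and Hochberg over all 18194 genes, was under 0.05. Values of a gene's dimmer probe sets, and of the Gapdh control probe sets by place, come from fits over probe sets. Their p is adjusted over all probe sets of the fit.

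Most of these genes rose with 6 h of stimulation in every genotype. In WT cells 27 of 34 members rose and 0 fell, while 19.7% of all genes rose and 22.0% fell. In Gli2A Tg cells 28 rose and 1 fell, against 20.2% and 22.8% of all genes. In Gli2R Tg cells 26 rose and 1 fell, against 19.8% and 22.5%. The median log2 difference of the members was 1.62, 1.96 and 1.63 in WT, Gli2A Tg and Gli2R Tg cells, and that of all genes was 0, 0 and 0.01. These 3 comparisons share no arrays: 25 of 34 members rose in all 3, as did 13.9% of all genes. Of the 13 glycolytic enzymes 10 rose in each genotype, and of the 13 HIF targets outside glycolysis 11 rose in each. Because the members were chosen with earlier results of these data known, their excess over the shares of all genes is a description and not a test.

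**Figure D1:**
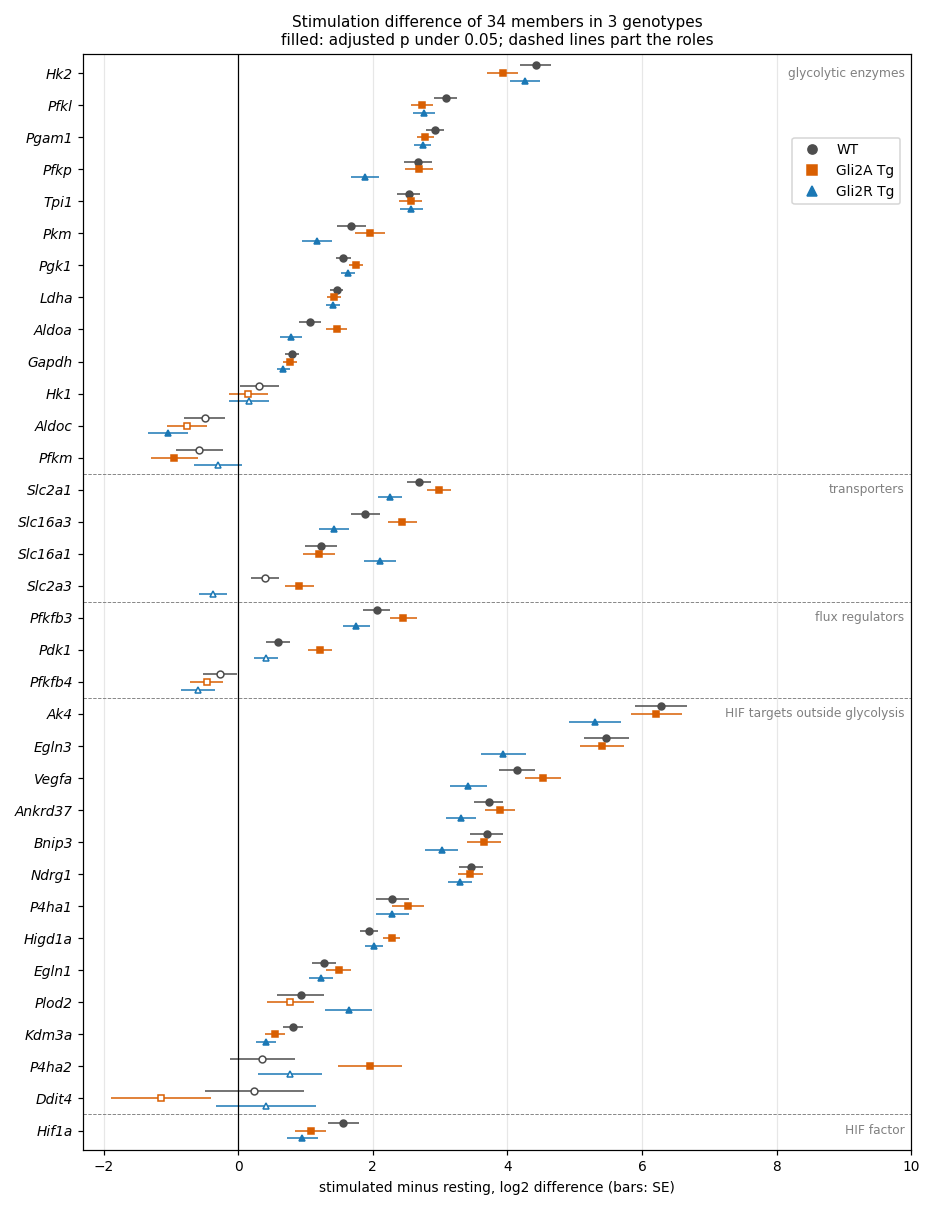
Log2 difference between stimulated and resting cells (x axis, bars are SE) for the 34 measured members (y axis, by role) in WT, Gli2A Tg and Gli2R Tg cells, 3 arrays per group. Filled symbols were called at an adjusted p under 0.05. The largest differences belong to Ak4 (6.28 in WT) and Egln3 (5.47 in WT), and Hk1, Pfkm, Aldoc, Pfkfb4, Slc2a3, P4ha2 and Ddit4 have open symbols in WT.

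Glucose enters the cell through transporters and is trapped by hexokinase. Slc2a1 (GLUT1), the main glucose transporter of activated T cells, had levels of 9.69, 9.89 and 9.83 in resting WT arrays and 12.55, 12.30 and 12.62 in stimulated ones. In Gli2A Tg cells it went from 9.77, 9.93 and 9.28 to 12.85, 12.78 and 12.29, and in Gli2R Tg cells from 9.94, 10.14 and 10.21 to 12.43, 12.41 and 12.21. Every stimulated array lay above every resting one. The difference was 2.69 ± 0.18 (SE) in WT cells, a 6.45-fold rise (limma, adjusted p = 2.54e-08), 2.98 in Gli2A Tg cells and 2.26 in Gli2R Tg cells.

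Slc2a3 (GLUT3), a high-affinity glucose transporter, was already at 12.09 to 12.29 in resting WT cells and had 12.26 to 12.80 after stimulation. Its stimulation difference was 0.40 ± 0.21 in WT (adjusted p = 0.151), 0.91 ± 0.21 in Gli2A Tg cells (adjusted p = 0.00239) and -0.38 ± 0.21 in Gli2R Tg cells (adjusted p = 0.175), so it was called in Gli2A Tg cells alone. With median centring in place of quantile normalization the WT difference was 0.80 and passed (adjusted p = 0.0128). The next brightest Slc2a3 probe set gave 0.61 in WT (adjusted p = 0.0491), 1.7 in Gli2A Tg cells and 0.31 in Gli2R Tg cells (adjusted p = 0.325). The call in Gli2A Tg cells alone thus depends on the probe set. The lactate transporters were both called in each genotype. Slc16a1 (MCT1) rose by 1.23 ± 0.24 in WT, 1.20 in Gli2A Tg cells and 2.11 in Gli2R Tg cells. Slc16a3 (MCT4), the lactate exporter of strongly glycolytic cells, rose by 1.89 ± 0.22, 2.44 and 1.42 in the same order.

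Hk2, the inducible hexokinase, changed more than any other measured glycolytic enzyme. Its levels were 8.48, 8.03 and 8.19 in resting WT arrays and 12.95, 12.31 and 12.70 in stimulated ones. In Gli2A Tg cells the values were 8.41, 8.26 and 8.77 before and 12.79, 12.23 and 12.23 after, and in Gli2R Tg cells 7.97, 7.98 and 7.55 before and 12.30, 12.20 and 11.77 after. The 9 stimulated arrays lay far above the 9 resting ones. The WT difference of 4.42 ± 0.23 is a 21.4-fold rise (limma, adjusted p = 2.98e-09), and the differences in the transgenic cells were 3.93 and 4.26. Hk1, the constitutive hexokinase, had WT levels of 11.19 to 11.33 before and 11.28 to 12.03 after, and its difference of 0.31 ± 0.29 was not called (adjusted p = 0.429). A dimmer Hk1 probe set gave -1.23 in WT (adjusted p = 0.0934) and -1.43 in Gli2R Tg cells (adjusted p = 0.0512). In Gli2A Tg cells it gave -1.5 and passed (adjusted p = 0.0403).

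Phosphofructokinase, which commits sugar to glycolysis, is built from 3 kinds of subunit, and they parted. The liver-type subunit Pfkl had 10.38, 10.19 and 10.11 in resting WT and 13.58, 13.29 and 13.05 in stimulated WT arrays. The platelet-type subunit Pfkp had 10.80, 10.79 and 10.69 before and 13.61, 13.20 and 13.49 after. Neither overlapped between conditions in any genotype.

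In Gli2A Tg arrays Pfkl was 10.29 to 10.76 before and 13.07 to 13.48 after, and Pfkp 10.54 to 10.95 before and 12.94 to 13.78 after. In Gli2R Tg arrays Pfkl was 10.21 to 10.37 before and 12.94 to 13.10 after, and Pfkp 10.78 to 11.22 before and 12.85 to 13.04 after. Pfkl rose by 3.08 ± 0.17, 2.73 and 2.76 in WT, Gli2A Tg and Gli2R Tg cells, and Pfkp by 2.67 ± 0.21, 2.69 and 1.88. The next brightest Pfkl probe set gave similar rises of 2.97, 2.82 and 2.59. The dimmest one gave 0.34 in WT and was not called (adjusted p = 0.402). It gave 0.84 in Gli2A Tg cells, which passed (adjusted p = 0.0311), and -0.19 in Gli2R Tg cells (adjusted p = 0.665). The probe sets of this gene thus do not all agree.

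Pfkm, the muscle-type subunit, did not rise. Its difference was -0.58 ± 0.35 in WT cells (adjusted p = 0.212), -0.95 ± 0.35 in Gli2A Tg cells, where it fell (adjusted p = 0.039), and -0.30 ± 0.35 in Gli2R Tg cells (adjusted p = 0.54). Resting Gli2A Tg replicate 3 stood at 10.34 against 8.58 and 9.35, and without that array the difference was -0.49 (adjusted p = 0.214). The Pfkm call was lost without 5 of the 6 Gli2A Tg arrays taken out in turn, and it held only without resting replicate 1.

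The middle and lower steps of glycolysis rose together. Tpi1 (triosephosphate isomerase) had levels of 11.96, 11.75 and 12.11 in resting and 14.53, 14.57 and 14.32 in stimulated WT arrays, a rise of 2.53 ± 0.17 or 5.78-fold. In Gli2A Tg arrays it went from 11.80 to 12.34 up to 14.30 to 14.86, and in Gli2R Tg arrays from 11.56 to 11.75 up to 14.11 to 14.27. Pgam1 (phosphoglycerate mutase) had 11.34, 11.16 and 11.01 before and 14.15, 14.05 and 14.06 after in WT, a rise of 2.92 ± 0.13 or 7.58-fold.

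Pgam1 was also the most even of the 14 genes in the plot of single arrays: the 9 stimulated arrays spanned 13.93 to 14.15, and the resting transgenic arrays 11.02 to 11.42. The remaining called enzymes were bright before stimulation. Aldoa (aldolase A) rose by 1.07 ± 0.16, Pgk1 (phosphoglycerate kinase) by 1.56 ± 0.11, Pkm (pyruvate kinase) by 1.68 ± 0.22 and Ldha (lactate dehydrogenase A) by 1.46 ± 0.10 in WT cells. Stimulated Ldha reached 15.17 to 15.44 and stimulated Pgk1 14.99 to 15.30, close to the highest value of any gene. A dimmer probe set of Pgk1 differed by 4.39 in WT. Whether the top of the scale limited the differences of the bright enzymes was not tested.

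Aldoc, the brain-type aldolase, moved the other way. Its difference was -0.50 ± 0.30 in WT (adjusted p = 0.208), -0.76 ± 0.30 in Gli2A Tg cells (adjusted p = 0.0529) and -1.04 ± 0.30 in Gli2R Tg cells, where it fell (adjusted p = 0.0106). With the mean of its probe sets the Gli2R Tg difference was -0.37 (adjusted p = 0.165).

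**Figure D2:**
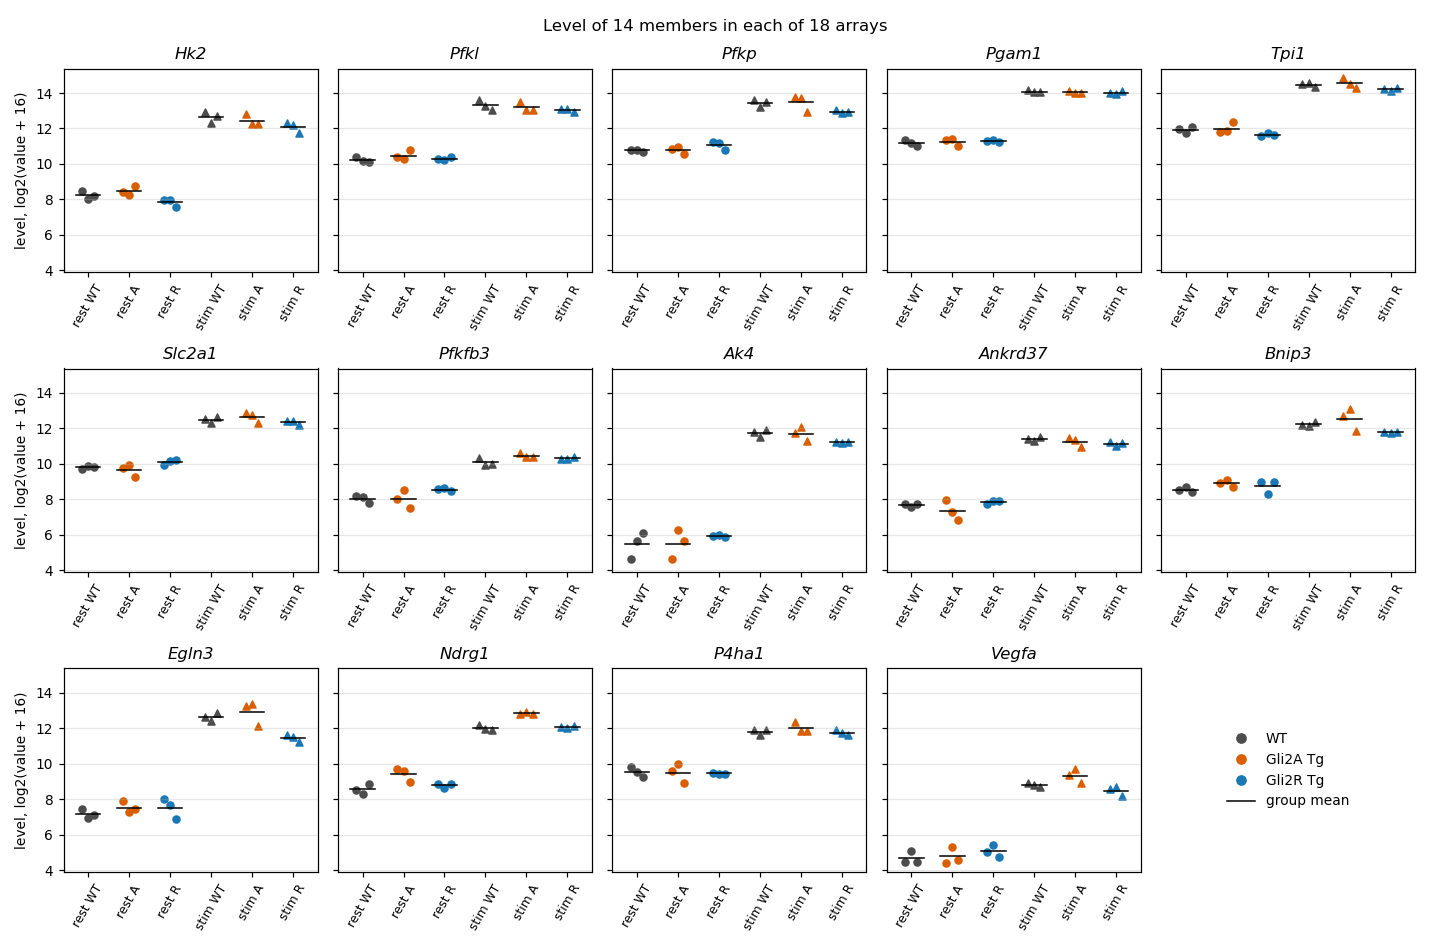
Level, log2(value + 16), of the 14 members that differed by at least 2 on the log2 scale with stimulation in WT cells, in each of 18 arrays (y axis shared by all panels). Circles are resting and triangles stimulated arrays, A and R stand for Gli2A Tg and Gli2R Tg, and lines are group means. In each panel all 9 stimulated arrays lie above all 9 resting arrays. The panels were picked by their WT difference, and the share of all genes that separate this way was not computed.

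Gapdh, glyceraldehyde-3-phosphate dehydrogenase, was read from the array's control probe sets, which sit at 3 places along its transcript, and these did not move alike. The 3′ probe set, the one used for the counts, rose by 0.80 ± 0.11 in WT cells (adjusted p = 3.99e-05). The middle one rose by 0.38 ± 0.13 (adjusted p = 0.0289). The 5′ one fell by 0.94 on the log2 scale, with an SE of 0.15 (adjusted p = 9.15e-05). The same order held in Gli2A Tg (0.77, 0.56 and -0.67) and Gli2R Tg cells (0.67, 0.20 and -1.01).

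The direction of Gapdh therefore depends on the probe set, and the count of 10 glycolytic enzymes that rose includes it by the 3′ one. The ratio of 3′ to 5′ signal, a measure of RNA integrity and of labelling, was 0.709 to 1.13 for Gapdh in resting and 1.71 to 2.79 in stimulated arrays. For Actb, beta-actin, the ratio was 1.26 to 1.71 in resting and 1.47 to 3 in stimulated arrays, with the value of 3 in stimulated Gli2A Tg replicate 2. Affymetrix probe sets lie mostly near the 3′ end, and the part of this shift in the other members' differences was not tested.

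**Figure D3:**
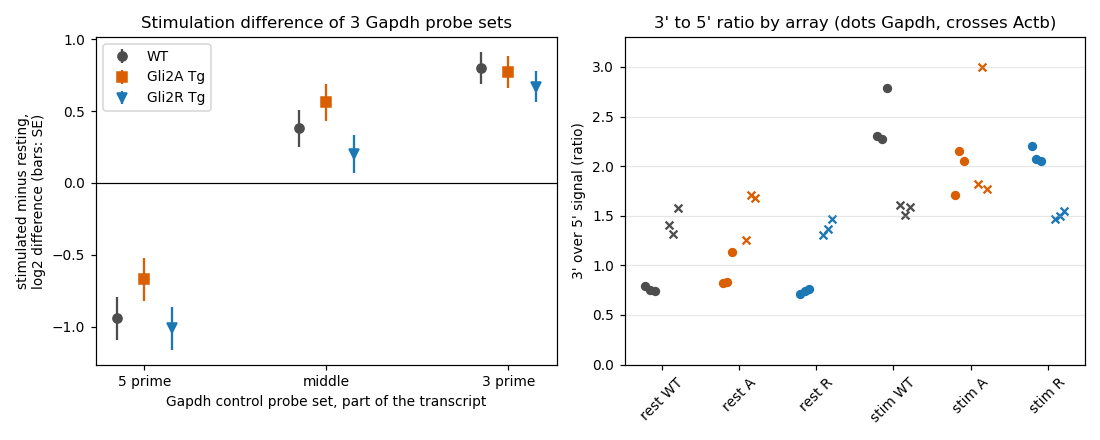
Left, log2 difference between stimulated and resting cells (y axis, bars are SE) of the 5′, middle and 3′ control probe sets of Gapdh in each genotype, 3 arrays per group. Right, ratio of 3′ to 5′ signal for Gapdh (dots) and Actb (crosses) in each array, where A and R stand for Gli2A Tg and Gli2R Tg. The Gapdh ratio is at most 1.13 in resting and at least 1.71 in stimulated arrays.

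Of the flux regulators, Pfkfb3 makes a fructose bisphosphate that strongly activates phosphofructokinase. It had 8.20, 8.13 and 7.79 in resting and 10.35, 9.94 and 10.01 in stimulated WT arrays. In Gli2A Tg arrays it went from 7.53 to 8.51 up to 10.37 to 10.63, and in Gli2R Tg arrays from 8.47 to 8.61 up to 10.25 to 10.40. The rise was 2.06 ± 0.20 in WT, or 4.17-fold, 2.45 in Gli2A Tg cells and 1.75 in Gli2R Tg cells.

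Pfkfb4, its paralog, was called in no genotype, with differences of -0.27, -0.47 and -0.60. With the deposited scaling alone it fell in all 3 (-0.72, -0.90 and -0.93). Pdk1, the kinase that closes the way from pyruvate into the mitochondrion, gave 0.59 ± 0.18 in WT (adjusted p = 0.0168), 1.21 in Gli2A Tg cells and 0.41 in Gli2R Tg cells (adjusted p = 0.0908). Its probe sets did not share a direction: in WT the other 3 gave -0.37, -0.57 and 0.72, and the mean of all 4 was 0.09 (adjusted p = 0.656). The Pdk1 call in WT was also lost without resting replicate 1 or 2 and without stimulated replicate 1 or 2, with adjusted p from 0.0502 to 0.0667.

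The HIF targets outside glycolysis held the largest differences of all. Ak4, a mitochondrial adenylate kinase, had levels of 4.61, 5.62 and 6.12 in resting WT arrays and 11.78, 11.49 and 11.92 in stimulated ones. In Gli2A Tg cells the values were 4.61, 6.25 and 5.63 before and 11.72, 12.08 and 11.31 after, and in Gli2R Tg cells 5.90, 5.98 and 5.89 before and 11.25, 11.20 and 11.22 after. It thus moved from near the lower quartile of genes to near 12.26, the level exceeded by 5% of them. The rise was 6.28 ± 0.38 in WT cells, 77.8-fold on this scale (limma, adjusted p = 8.29e-09), 6.21 in Gli2A Tg cells and 5.30 in Gli2R Tg cells. Since the resting value is near the floor set by the added 16, the fold understates a change in the signal of this probe set. The dimmer Ak4 probe sets all gave smaller differences in WT: 5.55, 2.68, 1.09 (not called, adjusted p = 0.0904) and 1.01. The size of the rise thus depends on the probe set.

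Egln3 (PHD3) and Egln1 (PHD2) are prolyl hydroxylases that mark HIF for destruction and are themselves HIF targets. Egln3 had 7.47, 6.95 and 7.09 in resting and 12.65, 12.40 and 12.85 in stimulated WT arrays. In Gli2A Tg cells it had 7.89, 7.25 and 7.45 before and 13.25, 13.40 and 12.14 after, and in Gli2R Tg cells 8, 7.67 and 6.88 before and 11.62, 11.50 and 11.24 after. After stimulation all 3 Gli2R Tg arrays lay below all WT and Gli2A Tg arrays.

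The Egln3 rise was 5.47 ± 0.33 in WT, 5.40 in Gli2A Tg cells and 3.94 in Gli2R Tg cells, which are 44.2-fold, 42.3-fold and 15.3-fold. A dimmer Egln3 probe set gave 3.53, 3.21 and 1.12 in the same order, the last not called (adjusted p = 0.094). Egln1 rose less, by 1.27 ± 0.18, 1.49 and 1.23.

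Vegfa, the growth factor for blood vessels, had 4.43, 5.10 and 4.43 in resting and 8.91, 8.78 and 8.68 in stimulated WT arrays. Its transgenic values were 4.42 to 5.32 before and 8.89 to 9.68 after in Gli2A Tg, and 4.76 to 5.41 before and 8.18 to 8.67 after in Gli2R Tg arrays. The rise was 4.14 ± 0.27 in WT, 4.53 in Gli2A Tg cells and 3.42 in Gli2R Tg cells. Resting Vegfa, with group means of 4.65, 4.78 and 5.07, lay below the lower quartile of genes and near the floor set by the added 16, so these differences understate the change. A second, dimmer probe set gave 0.88 in WT and was not called (adjusted p = 0.245).

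Bnip3, which sends mitochondria to autophagy, had 8.53, 8.68 and 8.43 before and 12.20, 12.15 and 12.36 after in WT arrays. It spanned 8.72 to 9.06 before and 11.84 to 13.11 after in Gli2A Tg arrays, and 8.32 to 8.98 before and 11.74 to 11.81 after in Gli2R Tg arrays. Its rise was 3.69 ± 0.25, 3.65 and 3.02 in WT, Gli2A Tg and Gli2R Tg cells. Stimulated Gli2R Tg arrays again lay below the others.

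Ankrd37, a small ankyrin repeat protein known as a HIF target, had 7.71, 7.57 and 7.73 before and 11.39, 11.28 and 11.51 after in WT arrays. It had 6.84 to 7.94 before and 10.94 to 11.44 after in Gli2A Tg arrays, and 7.74 to 7.89 before and 11.01 to 11.21 after in Gli2R Tg arrays. The rise was 3.72 ± 0.22, 3.89 and 3.31. Ndrg1, a stress-induced gene, had 8.52, 8.32 and 8.83 before and 12.21, 11.96 and 11.88 after in WT arrays, a rise of 3.46 ± 0.18. Its Gli2A Tg values were 9.68, 9.58 and 8.95 before and 12.80, 12.93 and 12.83 after, and its Gli2R Tg values 8.85, 8.64 and 8.84 before and 12.09, 12.02 and 12.12 after. All 3 Gli2A Tg arrays were above the WT arrays in both conditions.

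The collagen-modifying enzymes were uneven. P4ha1, the alpha subunit of a collagen prolyl hydroxylase, had 9.84, 9.51 and 9.23 before and 11.92, 11.64 and 11.88 after in WT arrays, a rise of 2.29 ± 0.24. It had 8.89 to 9.97 before and 11.84 to 12.36 after in Gli2A Tg arrays, and 9.42 to 9.49 before and 11.62 to 11.91 after in Gli2R Tg arrays.

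P4ha2, the other alpha subunit, was dim, at 4.93 to 6.29 in resting WT arrays, and was called in Gli2A Tg cells alone (1.96 ± 0.48, adjusted p = 0.00361), with 0.36 ± 0.48 in WT and 0.77 ± 0.48 in Gli2R Tg cells. Plod2, a lysyl hydroxylase, was also dim and gave 0.93 ± 0.35 in WT, called at an adjusted p of 0.0457, 0.77 ± 0.35 in Gli2A Tg, not called, and 1.64 ± 0.35 in Gli2R Tg cells. The Plod2 call in WT was lost without 5 of the 6 WT arrays taken out in turn, with an adjusted p of up to 0.175 without stimulated replicate 3, while its second probe set rose by 2.45 (adjusted p = 6.99e-06).

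Of the remaining targets, Higd1a, a protein of the inner mitochondrial membrane, rose by 1.94 ± 0.13, 2.28 and 2.02. Kdm3a, a histone demethylase, rose by 0.81 ± 0.15, 0.55 and 0.41, and the last call was lost without 5 of the 6 Gli2R Tg arrays taken out in turn, with an adjusted p of up to 0.168 without resting replicate 3, and with median centring (0.36, adjusted p = 0.126). Ddit4, a stress-induced inhibitor of mTOR, was called in no genotype, with 0.24 ± 0.74, -1.15 ± 0.74 and 0.41 ± 0.74. Its resting levels were scattered, 8.98 to 11.89 within Gli2A Tg arrays alone. Hif1a rose by 1.56 ± 0.23, 1.08 and 0.95, from 12.54 to 12.84 up to 14.19 to 14.25 in WT arrays. Its other 3 probe sets also rose in WT, by 0.91, 2.29 and 5.76. These arrays measure messenger RNA, while HIF activity is set largely by the stability of the protein.

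Promoter sequences show what part of these genes carries the core of a hypoxia response element close to an annotated start. RefSeq start sites of GRCm38.p6 gave windows for 33 of the 36 genes, and Slc2a3, Ndrg1 and Plod2 had no entry. The 250 bases before each start were searched for ACGTG on both strands, which on the given strand reads ACGTG or CACGT. Of 33 members 21 (63.6%) held it in at least 1 window, against 18.5% of 27025 genes in the table and 22.5% of the 14453 genes that the arrays also measured. By role it was found in 9 of 11 HIF targets outside glycolysis, in 7 of 15 glycolytic enzymes and in 3 of 3 transporters. The motif GCGTG, the other form of the core, was found in 72.7% of members and 42.5% of measured genes. The motif CACGTG, which contains ACGTG on both strands, was found in 21.2% of members and 8.73% of measured genes. Members' windows were also richer in G and C, with a median of 62.8% against 57.6% over measured genes, and several members had more than 1 window. Counted by window, 24 of 52 member windows (46.2%) held ACGTG, against 19.5% over measured genes. A match is a description of the sequence and not a bound site.

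Some windows are given for genes that the results turn on. These genes are some enzymes with steep or bright signals and the 5 HIF targets outside glycolysis with the largest rise in WT cells. Tpi1 is added as an example of the members that rose with no ACGTG in any window. The genes were chosen with their values and matches known. They read 5′ to 3′ in gene orientation and end at the base before the start, with ACGTG or CACGT in capitals. They are Hk2 (GRCm38.p6, chr6:82774455-82774704, minus strand), Pgk1 (chrX:106186850-106187099, plus), Ldha (chr7:46845554-46845803, plus, the first of 2 windows), Ak4 (chr4:101419039-101419288 and chr4:101419453-101419702, plus, the first and last of 4 windows), Vegfa (chr17:46032378-46032627 and chr17:46025164-46025413, minus, both of its windows), Egln3 (chr12:54203875-54204124, minus), Bnip3 (chr7:138909507-138909756, minus), Ankrd37 (chr8:45999851-46000100, minus) and Tpi1 (chr6:124814159-124814408, minus).
Hk2: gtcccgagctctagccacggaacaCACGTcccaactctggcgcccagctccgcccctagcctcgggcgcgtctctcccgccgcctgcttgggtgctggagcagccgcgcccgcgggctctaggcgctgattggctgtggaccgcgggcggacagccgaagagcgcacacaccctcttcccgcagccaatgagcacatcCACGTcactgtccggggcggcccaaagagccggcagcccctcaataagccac
Pgk1: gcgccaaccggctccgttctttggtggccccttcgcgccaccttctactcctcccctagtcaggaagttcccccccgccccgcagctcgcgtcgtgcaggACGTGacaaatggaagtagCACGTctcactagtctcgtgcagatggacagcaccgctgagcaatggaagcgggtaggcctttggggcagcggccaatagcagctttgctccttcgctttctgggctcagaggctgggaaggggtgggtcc
Ldha: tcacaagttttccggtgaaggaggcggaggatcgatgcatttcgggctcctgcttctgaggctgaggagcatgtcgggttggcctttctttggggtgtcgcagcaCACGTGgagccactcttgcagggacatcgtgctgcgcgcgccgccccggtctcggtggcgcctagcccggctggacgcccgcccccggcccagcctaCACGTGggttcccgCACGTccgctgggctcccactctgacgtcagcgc
Ak4 first: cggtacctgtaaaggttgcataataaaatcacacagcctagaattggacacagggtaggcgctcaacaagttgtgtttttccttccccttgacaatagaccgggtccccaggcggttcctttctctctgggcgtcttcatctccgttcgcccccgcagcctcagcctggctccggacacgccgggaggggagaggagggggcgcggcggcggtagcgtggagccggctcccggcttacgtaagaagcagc
Ak4 last: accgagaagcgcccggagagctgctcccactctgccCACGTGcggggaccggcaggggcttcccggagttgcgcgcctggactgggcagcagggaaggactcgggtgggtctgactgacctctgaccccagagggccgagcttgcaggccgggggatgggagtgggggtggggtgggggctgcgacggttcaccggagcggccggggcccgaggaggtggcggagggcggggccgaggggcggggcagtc
Vegfa first: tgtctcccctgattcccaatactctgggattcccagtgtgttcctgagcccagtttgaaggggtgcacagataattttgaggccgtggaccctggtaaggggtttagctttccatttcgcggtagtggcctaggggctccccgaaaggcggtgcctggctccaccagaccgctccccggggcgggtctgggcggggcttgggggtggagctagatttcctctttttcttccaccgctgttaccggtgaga
Vegfa second: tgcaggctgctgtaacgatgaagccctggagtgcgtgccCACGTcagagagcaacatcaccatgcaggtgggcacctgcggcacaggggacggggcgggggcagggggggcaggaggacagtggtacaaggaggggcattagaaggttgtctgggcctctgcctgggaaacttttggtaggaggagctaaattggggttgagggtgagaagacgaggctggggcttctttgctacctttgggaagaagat
Egln3: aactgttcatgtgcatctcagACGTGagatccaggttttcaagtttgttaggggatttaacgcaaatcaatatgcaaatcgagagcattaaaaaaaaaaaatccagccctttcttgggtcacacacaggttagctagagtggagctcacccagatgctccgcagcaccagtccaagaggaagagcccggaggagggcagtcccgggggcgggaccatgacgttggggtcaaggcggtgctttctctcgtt
Bnip3: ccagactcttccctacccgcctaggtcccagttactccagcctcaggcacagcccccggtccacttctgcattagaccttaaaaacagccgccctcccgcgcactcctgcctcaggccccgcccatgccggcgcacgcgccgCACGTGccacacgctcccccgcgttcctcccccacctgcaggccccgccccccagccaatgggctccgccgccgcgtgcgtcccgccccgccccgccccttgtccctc
Ankrd37: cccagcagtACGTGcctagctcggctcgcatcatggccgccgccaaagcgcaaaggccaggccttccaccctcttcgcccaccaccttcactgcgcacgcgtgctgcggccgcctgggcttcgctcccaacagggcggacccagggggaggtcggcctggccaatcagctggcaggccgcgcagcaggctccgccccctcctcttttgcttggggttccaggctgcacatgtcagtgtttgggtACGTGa
Tpi1: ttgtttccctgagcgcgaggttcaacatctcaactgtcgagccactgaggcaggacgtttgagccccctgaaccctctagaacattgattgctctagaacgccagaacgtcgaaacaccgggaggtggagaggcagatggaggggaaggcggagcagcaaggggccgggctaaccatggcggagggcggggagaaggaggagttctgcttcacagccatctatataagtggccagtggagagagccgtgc

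Ldha held 5 matches, 4 of them as the overlapping strands of 2 CACGTG, and Bnip3 held 2, as those of 1 CACGTG. Pgk1, Hk2 and Ankrd37 held 2 separate matches each. Ak4, with the largest rise, held none in 3 of its 4 windows and 2 matches, as 1 CACGTG, in the last, and Vegfa held none in its first window and 1 in its second. The second Vegfa window lies downstream of the first start. Vegfa counts among the genes with the motif through that window alone. Egln3, with a 44.2-fold rise in WT, held 1, and Tpi1, with a 5.78-fold rise, held none. Pfkl and Pfkp also held none, with log2 differences in WT of 3.08 and 2.67 against 2.53 for Tpi1. Gapdh, Pdk1, Higd1a and Kdm3a, also called higher in WT, held none either. The genes shown thus hold ACGTG more often than the members as a whole. Of the risers without ACGTG, all but Tpi1 held GCGTG, the other form of the core, in at least 1 window. Conversely, Pfkm, P4ha2 and Ddit4 held ACGTG and were not called in WT. Neither the number nor the presence of these letters was tested against the size of the rise.

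Set side by side, the HIF targets outside glycolysis moved farther than the glycolytic enzymes. The median log2 difference was 2.29 against 1.56 in WT, 2.52 against 1.75 in Gli2A Tg and 2.29 against 1.41 in Gli2R Tg cells. The range was 0.24 to 6.28 for the targets and -0.58 to 4.42 for the enzymes in WT cells, so the groups overlap widely. Averaged over the genes of a role, the change from the resting WT mean was 1.75, 1.61 and 1.58 in the stimulated WT arrays for the 13 enzymes and 2.80, 2.50 and 2.69 for the 13 targets. In each of the 9 stimulated arrays the targets' mean was the higher. In stimulated Gli2A Tg arrays the means were 1.68, 1.69 and 1.48 for enzymes and 3.12, 3.07 and 2.52 for targets. In stimulated Gli2R Tg arrays they were 1.44, 1.37 and 1.41 for enzymes and 2.46, 2.36 and 2.18 for targets. These means are a description, since the members were chosen with results of these data known. Several enzymes, but none of the leading targets, sat near the top of the scale.

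**Figure D4:**
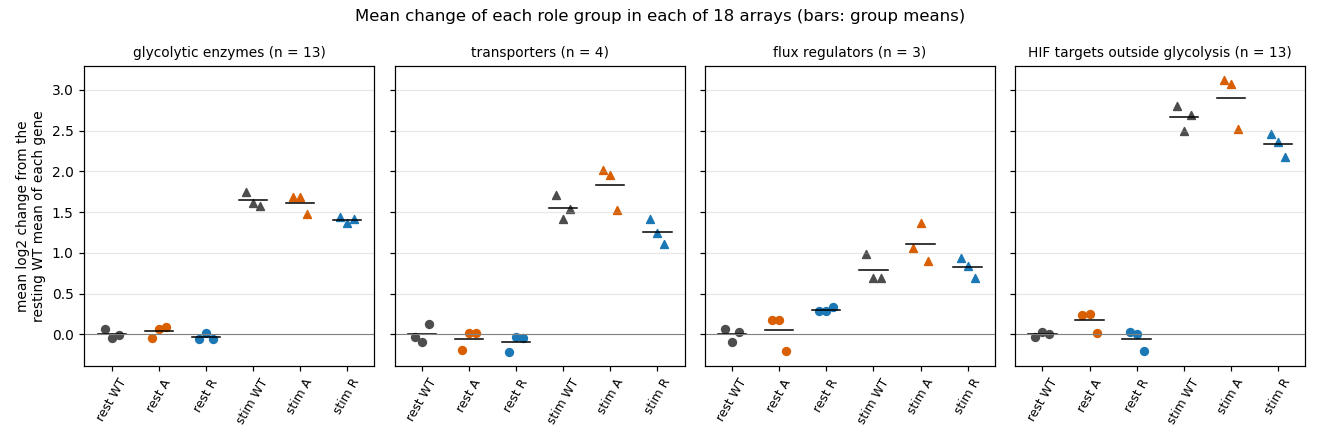
Mean log2 change from the resting WT mean of each gene (y axis), averaged over the genes of each role, in each of 18 arrays. Circles are resting and triangles stimulated arrays, A and R stand for Gli2A Tg and Gli2R Tg, and lines are group means. Stimulated arrays lie at 1.37 to 1.75 for glycolytic enzymes and at 2.18 to 3.12 for HIF targets outside glycolysis.

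Other genes of the same pathways, from lists that were fixed for this work, are set here against the 19.7% of all genes that rose and the 22.0% that fell in WT cells. Of 26 further measured glycolysis genes 5 rose and 8 fell, with a median of 0.12, which is near those shares. Pgm1 (phosphoglucomutase, 1.66) and Tigar (a fructose bisphosphatase, 1.61) were highest, and Slc16a7 (a pyruvate transporter, -2.69) and Hk3 (a hexokinase of myeloid cells, -2.55) lowest. Of 27 further HIF pathway genes 10 rose and 7 fell, with Bhlhe40 (a transcription factor, 3.79) and Car12 (a carbonic anhydrase, 3.28) highest and Epas1 (HIF-2 alpha, -2.70) and Arnt (the partner of HIF alpha subunits, -1.55) lowest.

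Of 6 genes of the pentose phosphate branch 2 rose and 2 fell, among them Pgd (1.69) and Pgls (-1.26). Of 19 genes of pyruvate entry and the citric acid cycle 4 rose and 6 fell, from Pdp1 (a pyruvate dehydrogenase phosphatase, 1.71) to Sdhc (a subunit of succinate dehydrogenase, -0.86). None of these counts was tested against the shares of all genes. The same lists gave 6 up and 8 down, 9 and 9, 1 and 2, and 6 and 4 in Gli2A Tg cells, where 20.2% of all genes rose and 22.8% fell. In Gli2R Tg cells they gave 5 up and 9 down, 10 and 8, 1 and 2, and 4 and 5, against 19.8% and 22.5% of all genes.

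The myeloid markers fell in the same arrays in which the members rose, and their mean over the 9 resting arrays (10.56 to 11.82) did not overlap that over the 9 stimulated ones (6.78 to 8.19). With this mean as a covariate in the fit, all 27 members that had risen in WT cells still had a difference above 0, and for 23 of them it was at least as large as without it. Hk2 was at 6.12 ± 1.11 and Ak4 at 6.11 ± 2.02. The median SE of the members went from 0.22 to 1.09. In that fit 3 members were called in WT cells, the same 3 in Gli2A Tg cells (Pfkp, Pgam1 and Egln3) and 1 in Gli2R Tg cells (Egln3), while of all genes 0.121%, 0.148% and 0.0824% were called, against 41.7%, 42.9% and 42.3% without the covariate. Condition and myeloid marker level can hardly be told apart in these arrays. The erythroid marker mean as covariate also left all 27 above 0 in WT, but only 4 were at least as large as without it. The members' median difference was 1.56 against 1.62, with a median SE of 0.34 against 0.22. Called members went from 27 to 22 in WT, with Aldoa, Pdk1, Kdm3a, Plod2 and Hif1a lost, and called genes from 41.7% to 24.9%. Members called numbered 23 for Gli2A Tg (29 without this covariate) and 25 for Gli2R Tg (27).

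Between genotypes, no member passed in any of 9 comparisons. The groups also differ in the number of male arrays given above, and with sex as a covariate the count was 0 in all 9 as well. In resting Gli2A Tg against WT cells 0 of 34 members were called, against 0.550% of all genes, and 1 of 34 (Ndrg1) had an unadjusted p under 0.05, against 10.1%. In resting Gli2R Tg against WT the counts were 0 (all genes 0%) and 4 (all genes 10.3%), namely Slc16a1, Pfkfb3, Kdm3a and Plod2. In resting Gli2A Tg against Gli2R Tg they were 0 (2.40%) and 9 (17.0%).

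In stimulated cells the picture was the same after adjustment. Stimulated Gli2A Tg against WT gave 0 members (0.137% of all genes) and 4 with an unadjusted p under 0.05 (11.4%), namely Slc2a3, Pdk1, P4ha2 and Ndrg1. Stimulated Gli2R Tg against WT gave 0 (0.0440%) and 5 (9.22%), namely Hk2, Pfkp, Gapdh, Slc16a3 and Egln3, and stimulated Gli2A Tg against Gli2R Tg 0 (0.231%) and 9 (9.16%). The Gli2A Tg and Gli2R Tg comparisons with WT share the WT arrays.

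The difference in stimulation effect was also tested directly. Gli2A Tg against WT gave 0 members (0.0110% of all genes) and 2 with an unadjusted p under 0.05 (10.1%), Pdk1 and P4ha2. Gli2R Tg against WT gave 0 (0%) and 4 (8.65%), namely Slc2a3, Pfkp, Slc16a1 and Egln3, and Gli2A Tg against Gli2R Tg 0 (0.110%) and 11 (10.6%). In 6 of these 9 comparisons at least 1 alternative setting or left-out array gave 1 to 5 called members, so the counts of 0 depend on the settings.

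The intervals say how large a genotype difference these arrays leave room for. For stimulated Gli2A Tg against WT, the 95% confidence intervals of the 13 glycolytic enzymes all lay between -0.95 and 0.69 on the log2 scale. Hk2 differed by -0.24 (-0.72 to 0.24), Pgam1 by -0.06 (-0.34 to 0.22) and Ldha by -0.20 (-0.41 to 0.02). For stimulated Gli2R Tg against WT the enzymes' intervals lay between -1.05 and 0.47, with Hk2 at -0.56 (-1.05 to -0.08) and Pgam1 at -0.07 (-0.35 to 0.21). Slc2a1 differed by 0.15 (-0.24 to 0.54) in Gli2A Tg and by -0.14 (-0.53 to 0.25) in Gli2R Tg cells. Hif1a differed by -0.16 (-0.66 to 0.34) and -0.23 (-0.73 to 0.27).

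**Figure D5:**
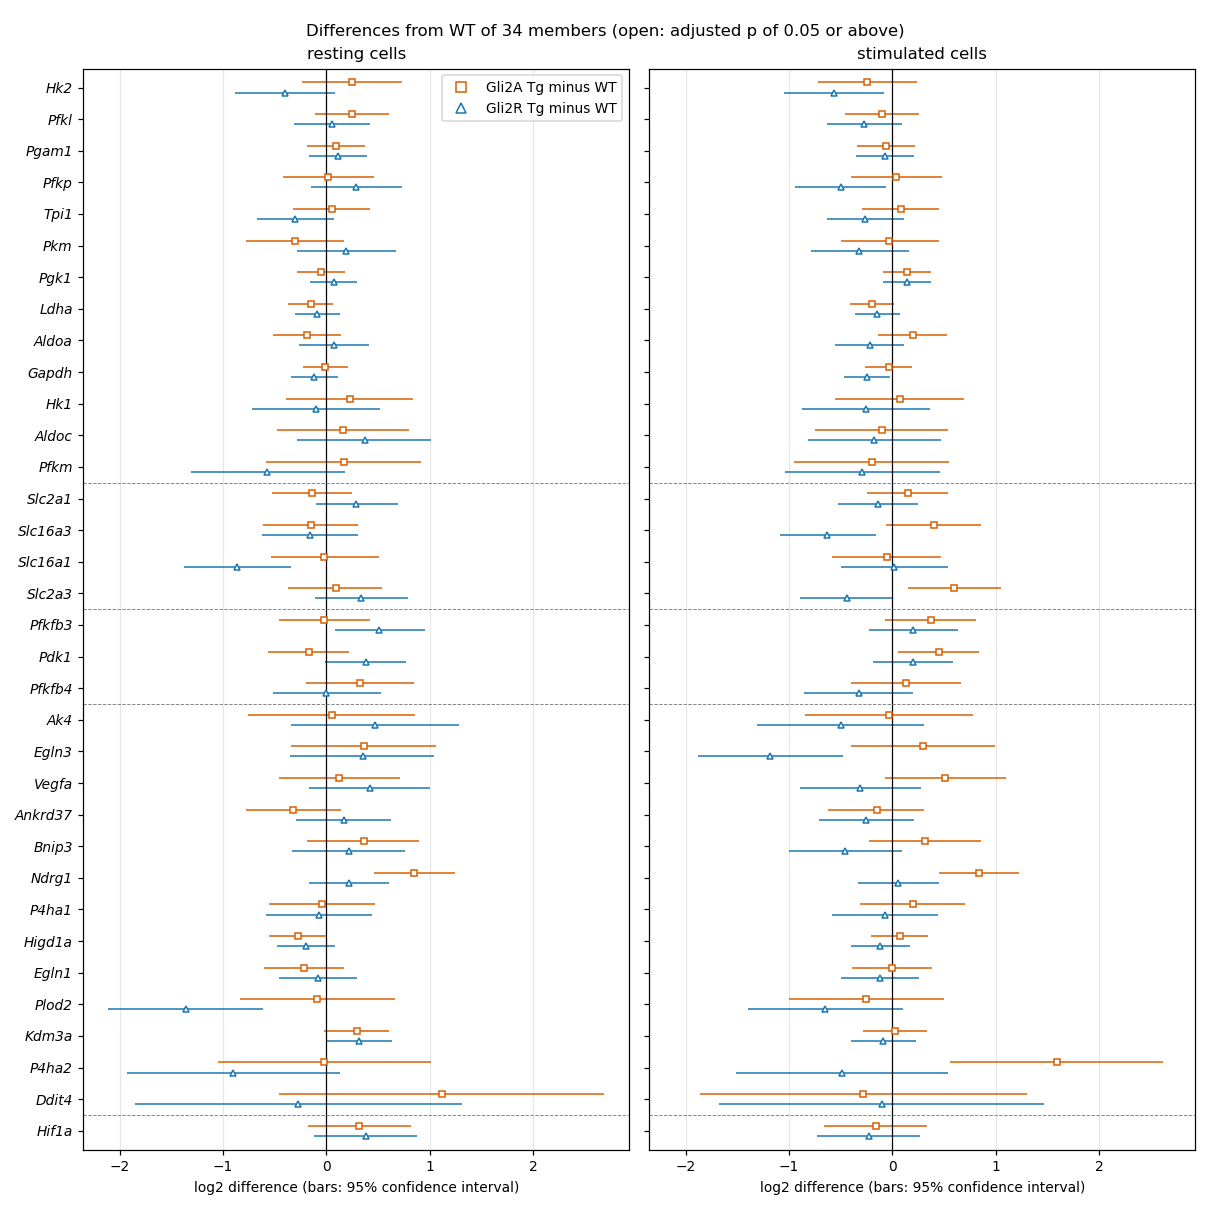
Log2 difference from WT (x axis, bars are 95% confidence intervals) of the 34 measured members (y axis, by role) in resting and in stimulated Gli2A Tg and Gli2R Tg cells, 3 arrays per group. All symbols are open because no member passed at an adjusted p under 0.05. In the panel of stimulated cells 29 of 34 Gli2R Tg symbols lie below 0, and Ndrg1 lies at 0.85 and 0.84 above WT in resting and stimulated Gli2A Tg cells.

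Ndrg1 came closest in the comparison of Gli2A Tg with WT. It was higher by 0.85 ± 0.18 in resting cells (95% interval 0.46 to 1.24, adjusted p = 0.0563) and by 0.84 ± 0.18 in stimulated cells (0.45 to 1.23, adjusted p = 0.0821), and neither passed. The resting difference did pass under 4 alternative settings and without resting WT replicate 3 (0.98, adjusted p = 0.0496) or resting Gli2A Tg replicate 3 (1.07, adjusted p = 0.00563), and the stimulated one under 3 settings. In a fit of all probe sets, a second Ndrg1 probe set of similar brightness gave 1.13 in resting cells, which passed (adjusted p = 0.0259), and 1.05 in stimulated cells (adjusted p = 0.0621). The 3 dimmer ones gave 0.80, 0.44 and -0.01 in resting cells and did not pass. Its stimulation effect was 3.45 in Gli2A Tg and 3.46 in WT cells. Against Gli2R Tg the Gli2A Tg values were 0.62 (adjusted p = 0.088) and 0.78 (adjusted p = 0.0956).

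Between stimulated Gli2A Tg and Gli2R Tg cells, 5 members had an adjusted p under 0.1, none of them under 0.05. They were chosen after their values were seen. Slc2a3 differed by 1.04 ± 0.21 (adjusted p = 0.0568), with levels of 13.44, 13.40 and 12.63 in Gli2A Tg and 12.23, 11.88 and 12.24 in Gli2R Tg arrays. Slc16a3 differed by 1.03 ± 0.22 (adjusted p = 0.0642), with 8.72, 8.68 and 8.40 against 7.95, 7.65 and 7.11. Egln3 differed by 1.48 ± 0.33 (adjusted p = 0.0753). None of these overlapped between the genotypes, but the share of all genes without overlap was not computed.

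The other members of that set were P4ha2, which differed by 2.07 ± 0.48 (adjusted p = 0.0909), with 7.85, 8.43 and 6.85 against 6.17, 5.80 and 4.96, and Ndrg1. Stimulated Gli2A Tg replicate 3 was the lowest of its group for Slc2a3, Egln3, Bnip3 and P4ha2. Without it these 4 members were called, and without either of the other Gli2A Tg arrays none was. The myeloid markers also differed between these groups, with summed levels of 2710 to 6570 in stimulated Gli2A Tg and 1940 to 2200 in stimulated Gli2R Tg arrays, and their part in these differences was not tested.

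In stimulated Gli2R Tg cells the members leaned low. Of 34 members 29 lay below WT, with a median of -0.25, while 9258 of 18194 genes lay below, with a median of -0.01. Median centring gave 32 and a median of -0.42, and the deposited scaling alone 31 and -0.29. In the same comparison 12 of 15 myeloid markers (median -0.29) and 6 of 7 erythroid ones (median -0.42) lay below WT. Fewer did so among B cell markers (3 of 8, median 0.07), CD8 T and NK markers (3 of 7, median 0.04) and CD4 T cell markers (3 of 9, median 0.26). The part of other cells in the members' shift was not tested. Egln3 had the largest difference, -1.18 ± 0.33 (95% interval -1.88 to -0.48, adjusted p = 0.25), followed by Plod2 (-0.65), Slc16a3 (-0.63) and Hk2 (-0.56). In stimulated Gli2A Tg cells 19 of 34 lay above WT, with a median of 0.05, which turned to -0.05 with median centring and -0.04 with the deposited scaling.

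Other values chosen after they were seen are those of Plod2 and Slc16a1 in resting cells. Plod2 was lower in Gli2R Tg than in WT, with a difference of -1.36 ± 0.35 (adjusted p = 0.208), with 4.82, 4.49 and 4.21 against 6.11, 5.61 and 5.89. Slc16a1 gave -0.86 ± 0.24 (adjusted p = 0.237), with 11.31, 11.43 and 11.61 against 12.17, 12.10 and 12.66. Neither gene passed. Their arrays did not overlap between the groups, but the share of all genes without overlap was not computed. The erythroid marker sum was 2910 to 6150 in resting Gli2R Tg and 13000 to 19900 in resting WT arrays, and its part in these differences was not tested.

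Among the other pathway genes, 3 were called between genotypes, all in resting cells. Bpgm, bisphosphoglycerate mutase, an enzyme abundant in red cells, was higher in Gli2A Tg than in WT by 1.91 ± 0.36 (adjusted p = 0.0268) and than in Gli2R Tg by 2.71 (adjusted p = 0.00119). The erythroid marker sum was 18900 to 47000 in these Gli2A Tg arrays and 2910 to 6150 in the Gli2R Tg arrays. Arnt2, a relative of the HIF partner subunit, was higher in Gli2A Tg by 1.80 ± 0.30 against WT (adjusted p = 0.012) and by 1.29 against Gli2R Tg (adjusted p = 0.0359). Hif3a, an alpha subunit that can hold back the others, was higher in Gli2A Tg than in Gli2R Tg by 2.05 ± 0.33 (adjusted p = 0.00407). Myeloid markers were also highest in resting Gli2A Tg arrays, with sums of 111000 to 120000 against 67500 to 104000 in WT and 47600 to 65400 in Gli2R Tg arrays, and the part of other cells was not tested.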

How the data were processed

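Total RNA of 18 samples was labelled with biotin and hybridised to 1 Affymetrix array each, per the labels' protocols, which name both a column kit and Trizol for extraction. The submitters' processing notes name affy, with no version. The deposited values are intensities on a linear scale, and in every array their mean with 2% trimmed at each end was 500. Of 45101 probe sets 34946 carry 1 symbol. The values plus 16 were log2 transformed and quantile normalized, and the brightest probe set stood for each of 18194 genes. One limma model (3.58.1, R 4.3.3) with 6 group means gave 12 comparisons, with Benjamini-Hochberg adjustment over all genes. The script was tested on simulated data. The number of arrays limits the precision.

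The members and lists were chosen with earlier results of these data known. Values of single arrays are given for members called between genotypes (0) and for those called in WT stimulation with a log2 difference of at least 2 (14), and those of other lists for genes called between genotypes or at the extremes in WT. Alternatives changed the normalization, the pseudocount (1 or 64), the filter on dim genes, the variance model, array weights, the probe set, the arrays in the fit and covariates.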

Additional observations from a re-analysis of the deposited data

How the results depend on the processing

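Of 8736 combinations of a member's comparison and an alternative, 8092 kept direction and side of the threshold, 438 changed sign with a call in neither fit, 122 lost a call, 83 gained one and 1 reversed: Pfkm in Gli2A Tg stimulation, 0.67 with the erythroid marker mean as covariate. With the myeloid marker mean as covariate, members called with stimulation came to 3 in WT, 3 in Gli2A Tg cells and 1 in Gli2R Tg cells, with 2, 2 and 0 glycolytic enzymes and 1, 1 and 1 HIF targets higher. In that fit the members' median difference was 3.18 in WT against 1.62 without it, and the median SE was 1.09 against 0.22, and 0.121% of all genes were called in WT. Members called in resting Gli2A Tg against WT were 1 with log2(value + 64), genes above the median level, a trended robust variance or array weights. In resting Gli2R Tg against WT 1 was called with array weights. In resting Gli2A Tg against Gli2R Tg there was 1 with median centring, the deposited scaling alone, log2(value + 1) or array weights, 2 with log2(value + 64), and 3 with genes above the median level or a trended robust variance. In stimulated Gli2A Tg against WT 1 was called with log2(value + 64), genes above the median level or a trended robust variance. In stimulated Gli2A Tg against Gli2R Tg there were 5 with log2(value + 64), 4 with genes above the median level or a trended robust variance, and 3 with array weights or the erythroid covariate. The difference in stimulation effect between Gli2A Tg and Gli2R Tg gave 1 with genes above the median level or a trended robust variance. The cause of these changes was not tested. Leaving out each array in turn gave 25 to 26 members called with stimulation in WT, 28 to 30 in Gli2A Tg cells and 26 to 27 in Gli2R Tg cells, with 10 glycolytic enzymes higher throughout and 10 to 11, 11 to 12 and 10 to 11 HIF targets. Between genotypes it gave 0 to 1 in resting Gli2A Tg against WT (1 without resting WT or Gli2A Tg replicate 3), 0 to 1 in resting Gli2R Tg against WT (1 without resting Gli2R Tg replicate 3), 0 to 2 in resting Gli2A Tg against Gli2R Tg (2 without Gli2A Tg replicate 1, 1 without replicate 2 or 3), 0 to 4 in stimulated Gli2A Tg against Gli2R Tg, 0 to 1 for their stimulation effects (both highest without stimulated Gli2A Tg replicate 3) and 0 in the other 4.

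For each genotype, deviations of resting arrays from their group mean were correlated with those of stimulated arrays. Same-numbered arrays gave 0 to 0.07 and were not taken as pairs, although 8 of 9 correlated best with their own number. These values do not settle whether same-numbered arrays were handled together. A replicate block gave 1 called member in stimulated Gli2A Tg against Gli2R Tg, P4ha2 (adjusted p = 0.0274), and changed no other count by over 1.5 times. Median centring moved the median of all genes by 0.13 in WT stimulation, and the share of higher among called genes in WT was 47.2% as reported, 51.2% with median centring and 39.4% with the deposited scaling.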
